A study of Mus musculus with 12 samples.

Results

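The nuclear-encoded subunits of the respiratory chain were followed in myocardial tissue of 10 wild-type mice. They were chosen by gene symbol and not by any measured value, though with earlier results of these data known. The set takes protein-coding genes whose symbols begin with Nduf and a subunit letter, Uqcr, Cox followed by a digit from 4 to 8, or Atp5, together with Sdha, Sdhb, Sdhc, Sdhd, Cyc1 and Cycs. It held 87 of the 56647 gene rows with a value in every library. Of these, 37 belonged to complex I, 4 to complex II, 9 to complex III, 18 to complex IV and 18 to complex V, and Cycs encodes cytochrome c. The rows carried 86 symbols, because Atp5o was listed under 2 identifiers. Selection by symbol left out Ndufab1, a complex I subunit named by another pattern, and it kept Ndufa4 under complex I although its product is now known as a component of complex IV. It also kept Cox7a2l, which joins complexes into supercomplexes, and Atp5s, a coupling factor of the synthase.

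The respiratory chain passes electrons through the inner mitochondrial membrane to oxygen and stores the energy as a proton gradient. Complex I takes electrons from NADH and complex II takes them from succinate. Complex III hands them to cytochrome c, complex IV passes them to oxygen, and complex V uses the gradient to make ATP. Heart muscle depends on this pathway for nearly all of its ATP, and the loss of blood flow after a coronary occlusion stops it for lack of oxygen. All of complex II is encoded in the nucleus, whereas the other 4 complexes also contain mitochondrially encoded subunits.

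All 3 groups were wild type. The sham vehicle group held 3 sham mice that had been given vehicle. The MI group held 3 mice with myocardial infarction (MI) from ligation of the left coronary artery, and for them the titles name neither vehicle nor delivery. In the NECA-treated MI group 4 mice had a model of infarction with NECA delivered locally into the infarcted muscle. NECA resembles adenosine and acts on its receptors. Should the MI mice have had no vehicle, the effects of NECA and of delivering it cannot be told apart, and the same holds for ligation and the lack of vehicle. The labels used here give neither the age and sex of the mice nor the time between ligation and tissue collection.

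The 10 libraries of matched depth held 0.96 to 1.33 M counts. MI mice 2 and 3 each had a further library, labelled 1st, of 30.753 and 27.142 M counts. These had another set of gene rows, with 306 rows valued only in them and 101 lacking values only in them. That points to another annotation, which the sources used here do not state. The 1st libraries exist for MI mice only, so the 2nd libraries stood for these mice. Values with both libraries summed are given beside them. Some mice stood apart. In counts per M of the library total (CPM), the summed fibroblast markers ranged from 547 to 1700 in sham vehicle mice, from 1220 to 11200 in MI mice and from 1350 to 4540 in NECA-treated MI mice, with the highest value in MI mouse 3 in both of its libraries. In its 2nd library Myh7, which encodes slow myosin heavy chain, stood at 2940 CPM against 99.8 to 395 CPM in the other matched libraries. In sham vehicle mouse 3 the atrial myosin light chain genes Myl4 and Myl7 stood at 1350 and 785 CPM. They were at most 6.22 and 0.888 CPM in the other matched libraries. Adipoq, a hormone of fat cells, stood at 108 CPM there and at 0 to 23.1 CPM in the other matched libraries. Summed fat cell markers were at 862 CPM in that mouse and at 340 to 631 CPM in the other matched libraries. In the 1st library of MI mouse 2 these markers reached 943 CPM. Summed cardiomyocyte markers ranged from 67100 to 79100 CPM, from 58900 to 70200 CPM and from 69600 to 76200 CPM in the same order of groups. All 12 cardiomyocyte markers were tested and were abundant, as befits the tissue label. In bulk tissue, fewer cells of a type and less RNA per cell cannot be told apart.

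A promoter motif that was not used to choose the members occurred in a larger share of their windows than of all windows. Nuclear respiratory factor 1 (NRF1) is a transcription factor known for binding promoters of nuclear-encoded respiratory genes at a GC-rich palindrome. Its core, GCGC followed by A, any base and GCGC again, was searched on both strands and occurred in 18 of the 74 RefSeq promoter windows of members (24.3%) and in 6.38% of all 21263 windows. A window ran from 250 bases before to 50 bases after a gene's start, and 69 of the 86 member symbols had at least 1. GC content was 57.7% in the members' windows and 56.2% in all windows. A motif of the factor YY1 occurred in 5.41% of the members' windows and 0.889% of all, and the letters TCAAGGTCA of the estrogen-related receptors in 2.7% and 0.334%. The letters CCGGAAGTG of the GABP factor occurred in 2.7% and 2.71%. None of the 4 motifs contains another. These matches are a description of sequence and do not show binding. The windows below are shown because each holds the NRF1 letters in a member of a different complex, with the letters in capitals, read 5′ to 3′ along the gene's strand (build GRCm38.p6, RefSeq). The match in Uqcrc1 is on the opposite strand, so its capitals are the reverse complement of the letters.
Ndufb4, complex I, chr16:37654540-37654569, minus strand: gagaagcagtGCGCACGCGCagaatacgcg
Sdha, complex II, chr13:74350319-74350348, minus strand: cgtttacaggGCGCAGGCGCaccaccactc
Uqcrc1, complex III, chr9:108936643-108936672, plus strand: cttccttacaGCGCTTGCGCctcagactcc
Cox6a1, complex IV, chr5:115349101-115349130, minus strand: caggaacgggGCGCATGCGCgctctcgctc
Atp5c1, complex V, chr2:10080430-10080459, minus strand: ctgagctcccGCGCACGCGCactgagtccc
The letters began at -191 from the gene's start in Ndufb4, -98 in Sdha, 5 in Uqcrc1, -162 in Cox6a1 and -17 in Atp5c1. Tested members with the letters had a median log2 fold change of -0.11 in MI against sham vehicle mice (17 genes), and those with a window but without the letters had -0.10 (50 genes). Between NECA-treated MI and MI mice the medians were -0.02 and -0.06.

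The subunit transcripts made up 3.69% ± 0.206 of all counts in sham vehicle mice, 3.56% ± 0.151 in MI mice (SD, n = 3 each) and 3.58% ± 0.137 in NECA-treated MI mice (SD, n = 4). By mouse the shares were 3.79%, 3.82% and 3.45% in sham vehicle mice, 3.58%, 3.70% and 3.40% in MI mice, and 3.55%, 3.43%, 3.6% and 3.76% in NECA-treated MI mice. The groups overlapped, and their means differed by less than the spread within a group. The 13 mitochondrially encoded subunits took a further 22.3% ± 2.43, 21.3% ± 3.44 and 22.1% ± 0.67 of counts. Complex V held the largest share of the counts of members, with 1.40%, 1.34% and 1.37% of all counts in the 3 groups, and complex I followed with 0.924%, 0.905% and 0.878%.

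**Figure D1:**
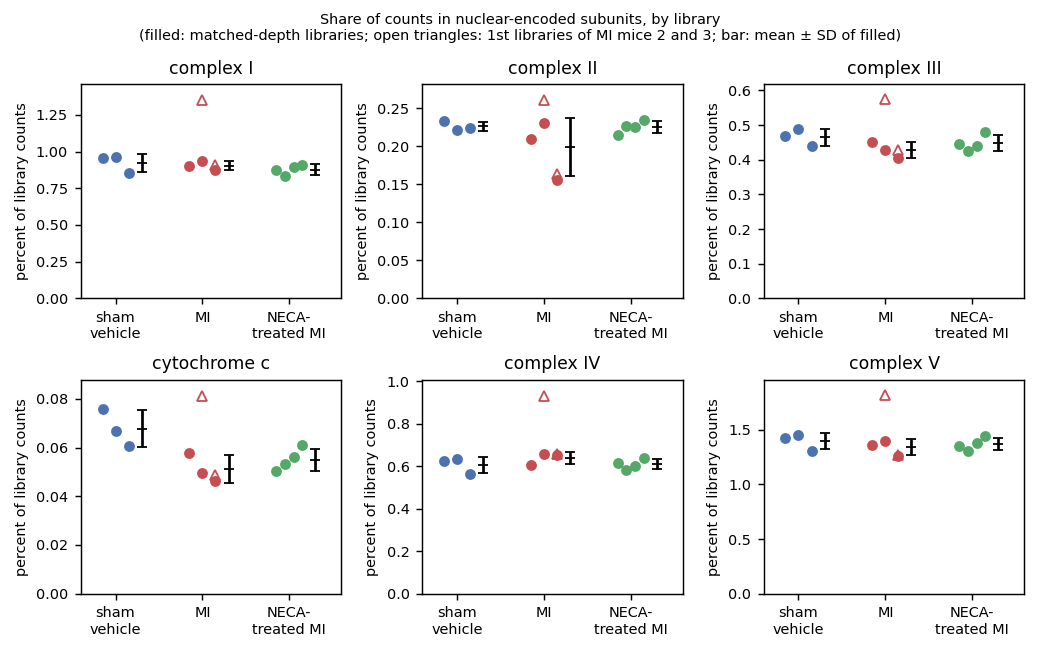
Percent of a library's counts in the nuclear-encoded subunits of each complex (y axes, from 0), by group (x axes). Filled points are the matched libraries, open triangles the 1st libraries of MI mice 2 and 3, and bars the mean ± SD of the filled points. The filled points of the groups overlap in each of complexes I, II, III, IV and V. For cytochrome c those of MI mice (0.0463% to 0.0577%) lie below those of sham vehicle mice (0.0606% to 0.076%). Those of NECA-treated MI mice (0.0502% to 0.0609%) overlap both. MI mouse 3 is low for complex II in both of its libraries (0.156% and 0.164%), and the 1st library of MI mouse 2 is the highest point in every panel.

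No subunit gene changed past the threshold in any comparison. Of the 87 members, 82 had enough counts to be tested among 9505 genes (edgeR quasi-likelihood test, Benjamini-Hochberg adjusted p under 0.05). In MI against sham vehicle mice 0 of 82 members passed, and 7 of all genes did (0.0736%). For NECA-treated MI against MI mice edgeR gave 0 members and 0 genes (0.0%), and before adjustment p was under 0.05 for 577 genes (6.07%) and 4 members (4.88%). Between NECA-treated MI and sham vehicle mice 0 members and 1 gene passed (0.0105%). The smallest adjusted p of a member was 0.111, 0.793 and 0.757 in the same order (edgeR). Before adjustment, p was under 0.05 for 4 members between MI and sham vehicle mice (4.88%, against 12% of all genes) and for 5 between NECA-treated MI and sham vehicle mice (6.1%, against 6.03%). The test recovered 42% of 2-fold and 89% of 4-fold changes simulated from these mice for MI against sham vehicle. The changed genes were drawn from all tested genes above a minimum level, and recovery among the members alone was not simulated. In that comparison the median standard error was 0.18 over the members and 0.28 over all genes, so these percentages do not give the recovery of subunit genes.

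The fold changes of the members were small and mostly below 0. The median log2 fold change over the 82 members was -0.10 in MI against sham vehicle mice, with 60 members negative (73.2%, all genes 50.9%) and a median standard error of 0.18. It was -0.04 in NECA-treated MI against MI mice, with 48 negative (58.5%, all genes 51.5%). Set against sham vehicle mice, NECA-treated MI mice had -0.13, with 75 negative (91.5%, all genes 52.1%). The median of all genes was -0.01 in each comparison. The comparisons share mice, so they are not independent of one another. Without scaling beyond library totals the medians were -0.01, -0.06 and -0.06, and 44, 51 and 63 members were negative. Without sham vehicle mouse 3, 77, 47 and 81 members were negative, with medians of -0.23, -0.03 and -0.26 (all genes 49.3%, 51.4% and 49.8% negative). Leaving out MI mouse 3 gave 52, 64 and 75 negative members and medians of -0.03, -0.10 and -0.13 (all genes 51.0%, 50.1% and 51.9% negative). Summing the 1st and 2nd libraries gave a median of 0.14 with 21 of 82 members negative in the first comparison, and of -0.27 with 74 of 82 negative in the second. The sign of the median thus turned with the choice of library for MI mice 2 and 3 in MI against sham vehicle mice. It stayed negative in NECA-treated MI against MI mice. NECA-treated MI against sham vehicle mice compares no MI mouse, so this choice could hardly change its fold changes.

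**Figure D2:**
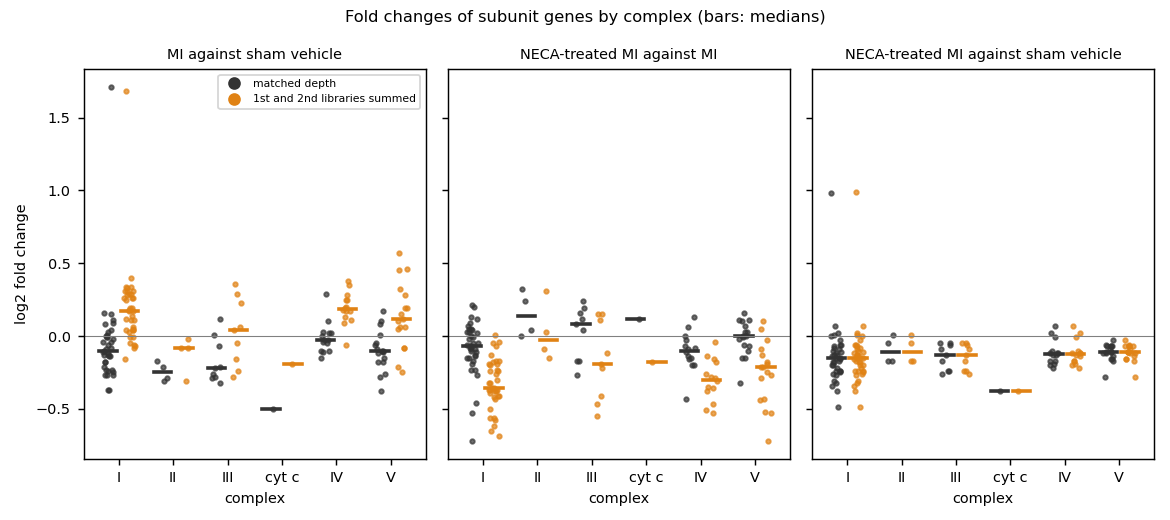
Log2 fold change of each tested subunit gene (points, y axis) by complex (x axis) in the 3 comparisons (panels), with bars at the medians. With matched libraries (dark) the complex I median is -0.10 in MI against sham vehicle mice, and with the 1st and 2nd libraries summed (orange) it is 0.17. Ndufa4l2 is the point far above 0 in the panels of MI and of NECA-treated MI against sham vehicle mice, and 0 members passed the threshold.

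The spread among mice within a group was as large as the differences between groups. As the mean over members of log2 CPM minus the sham vehicle mean, sham vehicle mice 1, 2 and 3 stood at 0.17, 0.10 and -0.27, MI mice 1, 2 and 3 at -0.10, 0.07 and -0.21, and NECA-treated MI mice 1 to 4 at -0.13, -0.26, -0.09 and 0.00. Sham vehicle mouse 3, with the atrial and fat markers, was the lowest of its group. Sham vehicle mouse 1 had the highest level of 42 of the 82 members (51.2%, all genes 13.2%). NECA-treated MI mouse 2 had the lowest level of 27 members (32.9%, all genes 7.55%), and so had MI mouse 3 (32.9%, all genes 21.1%). Among members with at least 100 CPM, the median coefficient of variation was 16.2% in sham vehicle mice, 11.6% in MI mice and 9.06% in NECA-treated MI mice, against 14.1%, 17.6% and 8.6% for all genes of that level. The scaling factors ran from 0.885 in sham vehicle mouse 1 to 1.133 in MI mouse 3, with 1.095 in sham vehicle mouse 3. A scaled level is divided by its mouse's factor, so a low factor raises all levels of that mouse. Relative to library totals, the members took 3.79% of counts in sham vehicle mouse 1 and 3.45% in sham vehicle mouse 3. The part of the factors in these differences was not tested.

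**Figure D3:**
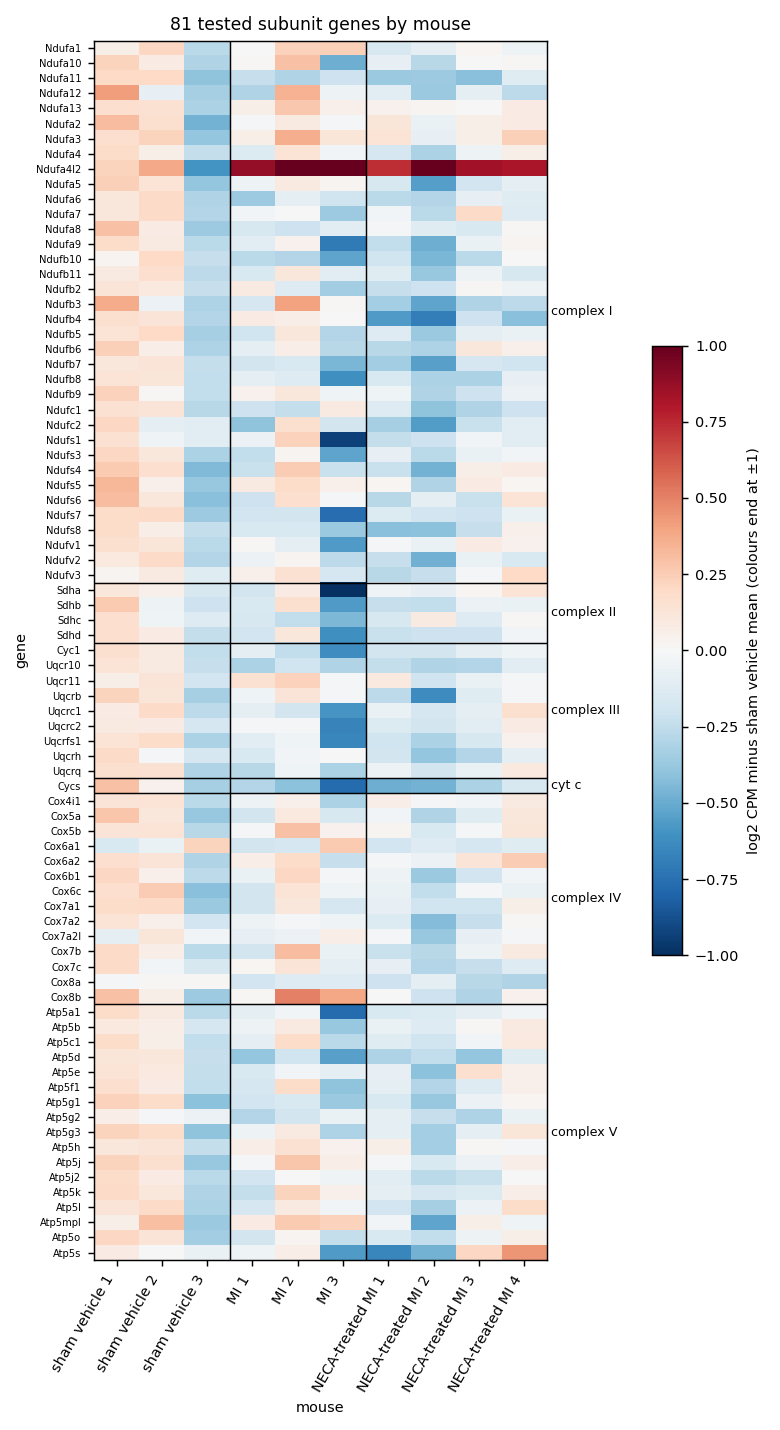
Log2 CPM minus the sham vehicle mean for 81 of the 82 tested subunit genes (rows, by complex) in each mouse (columns), red above and blue below the sham vehicle mean, with colours ending at ±1. Sham vehicle mouse 3 and NECA-treated MI mouse 2 are blue in most rows, MI mouse 3 is darkest blue for Sdha and Ndufs1, and Ndufa4l2 is red in all 7 infarcted mice.

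Among the 37 complex I genes, the member with the largest difference was Ndufa4l2 (ENSMUSG00000040280), a paralogue of Ndufa4 known as a target of hypoxia-inducible factor. Its TMM-scaled level was 7.85, 9.01 and 3.67 CPM in sham vehicle mice, 13.4, 24.5 and 29.1 CPM in MI mice, and 12, 15.7, 13.0 and 12.8 CPM in NECA-treated MI mice. Each of the 7 infarcted mice lay above each sham vehicle mouse, and the groups of MI and NECA-treated MI mice overlapped. The counts behind these levels were 8, 11 and 5 in sham vehicle mice, 15, 22 and 31 in MI mice, and 15, 20, 15 and 13 in NECA-treated MI mice. The log2 fold change was 1.71 ± 0.38 (SE) in MI against sham vehicle mice and did not pass over all genes (edgeR adjusted p = 0.111). With no filter on low counts Ndufa4l2 passed at 1.70 (adjusted p = 0.00338, with 0.941% of all genes called), and without MI mouse 1 it passed at 1.99 (adjusted p = 0.0435, 0.101% of genes called). With the 1st and 2nd libraries summed it had 1.68 (adjusted p = 0.0554). Its log2 fold change was -0.72 ± 0.31 in NECA-treated MI against MI mice (adjusted p = 0.793) and 0.98 ± 0.37 in NECA-treated MI against sham vehicle mice (adjusted p = 0.805). Without both sham vehicle mouse 3 and MI mouse 3, its log2 fold change in MI against sham vehicle mice was 1.11 (adjusted p = 0.245).

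Ndufb4 and Ndufb3, accessory subunits of the complex I membrane arm, were lower in NECA-treated MI mice than in MI mice, without passing the threshold. Ndufb4 (ENSMUSG00000022820) had 82.4, 80.3 and 59.5 CPM in sham vehicle mice, 77.7, 76.9 and 73.3 CPM in MI mice, and 48.8, 44.7, 63.3 and 54.2 CPM in NECA-treated MI mice. The last 2 groups did not overlap. Its log2 fold change in that comparison was -0.53 ± 0.17 (edgeR adjusted p = 0.793, unadjusted p = 0.00474), the smallest p of a member in that comparison. A noncoding copy, Ndufb4c, was counted separately with 66 to 115 counts in the matched libraries, and the division of reads between such copies makes the level of Ndufb4 uncertain. Ndufb3 had 158, 117 and 97.7 CPM in sham vehicle mice, 108, 162 and 123 CPM in MI mice, and 96.1, 83.8, 98.8 and 101 CPM in NECA-treated MI mice, and its log2 fold change against MI mice was -0.46 ± 0.18 (adjusted p = 0.793). Both kept their sign with the libraries summed, at -0.62 and -0.56. Ndufb10, another accessory subunit, had 485, 546 and 405 CPM in sham vehicle mice and 393, 389 and 329 CPM in MI mice, a log2 fold change of -0.37 ± 0.17 (adjusted p = 0.409), and -0.07 with the libraries summed. In MI against sham vehicle mice 27 of the 37 complex I genes had a negative fold change, with a median of -0.10.

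Complex II, succinate dehydrogenase, also belongs to the tricarboxylic acid cycle. Its 4 genes were lowest of all mice in MI mouse 3. Sdha, the flavoprotein that oxidises succinate, had 1170, 1130 and 971 CPM in sham vehicle mice, 955, 1150 and 528 CPM in MI mice, and 1060, 1020, 1100 and 1200 CPM in NECA-treated MI mice. MI mouse 3 thus lay far below the other 9 mice. MI mouse 1 lay just below all sham vehicle and NECA-treated MI mice, and MI mouse 2 lay among them. Sdhb, the iron-sulfur subunit, had 418 CPM in MI mouse 3 against 519 to 742 CPM elsewhere. Sdhd, a membrane anchor, had 233 CPM there against 301 to 400 CPM. Sdhc, the other membrane anchor, had 350, 303 and 284 CPM in sham vehicle mice, 278, 261 and 227 CPM in MI mice, and 278, 331, 284 and 314 CPM in NECA-treated MI mice.

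The median log2 fold change of complex II was -0.25 in MI against sham vehicle mice (4 of 4 genes negative, 0 called) and -0.04 without MI mouse 3. Between NECA-treated MI and MI mice the median was 0.14, and -0.04 without MI mouse 3. With the 1st and 2nd libraries summed these medians were -0.08 and -0.03. Sdha had log2 fold changes of -0.31 ± 0.22 and 0.32 ± 0.20 in these comparisons (edgeR adjusted p = 0.586 and 0.845), and -0.05 and 0.05 without that mouse. Sdhc had -0.29 ± 0.16 and 0.24 ± 0.15 (adjusted p = 0.474 and 0.835). The low values of MI mouse 3 recurred in its 1st library. There, relative to library totals, Sdha was at 628 CPM, and at 586 CPM in the 2nd library. Complex II counts per complex IV count were 0.249 and 0.238 in the 1st and 2nd library of MI mouse 3, against 0.28 in the 1st library of MI mouse 2 and 0.346 to 0.398 in the other libraries. In the same mouse all 7 fibroblast markers were detected at a summed 11200 CPM and cardiomyocyte markers were lowest, and their part in the complex II values was not tested.

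In complex III, which moves electrons from ubiquinol to cytochrome c, 7 of 9 genes had a negative fold change in MI against sham vehicle mice and the median was -0.22, or -0.10 without MI mouse 3. With the 1st and 2nd libraries summed it was 0.04, and between NECA-treated MI and MI mice it went from 0.08 to -0.19. Cyc1, which encodes cytochrome c1, had 832, 792 and 626 CPM in sham vehicle mice, 693, 627 and 484 CPM in MI mice, and 658, 656, 696 and 725 CPM in NECA-treated MI mice, and the groups overlapped. Its log2 fold change in MI against sham vehicle mice was -0.32 ± 0.18 (edgeR adjusted p = 0.481), and 0.05 on the deposited length-scaled values. Uqcr10, a small subunit, had 308, 296 and 237 CPM in sham vehicle mice and 223, 242 and 226 CPM in MI mice, with -0.28 ± 0.16 (adjusted p = 0.474). Uqcrb, a subunit near the ubiquinone site, had 298, 335 and 303 CPM in MI mice and 255, 197, 281 and 302 CPM in NECA-treated MI mice, with -0.27 ± 0.17 (adjusted p = 0.835). Uqcrc1, a core protein, was the most counted with 961 CPM on average.

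Cycs (ENSMUSG00000063694) encodes cytochrome c, the mobile carrier between complexes III and IV that also triggers cell death when released from mitochondria. It had 869, 728 and 567 CPM in sham vehicle mice, 579, 536 and 417 CPM in MI mice, and 505, 512, 568 and 637 CPM in NECA-treated MI mice. Sham vehicle mice 1 and 2 lay above all infarcted mice, and sham vehicle mouse 3 lay among them on this scale. Relative to library totals, sham vehicle mouse 3 (0.0606% of counts) lay above all MI mice (0.0463% to 0.0577%). It lay within the range of NECA-treated MI mice (0.0502% to 0.0609%). Its log2 fold change was -0.50 ± 0.19 between MI and sham vehicle mice (edgeR adjusted p = 0.325). Set against MI mice, NECA-treated MI mice had 0.12 ± 0.18 (adjusted p = 0.931), and set against sham vehicle mice they had -0.38 ± 0.18 (adjusted p = 0.821). With the libraries summed, MI against sham vehicle mice gave -0.19 (adjusted p = 0.772). When sham vehicle mouse 3 and MI mouse 3 were both left out, an alternative chosen after the data were seen, Cycs had -0.52 ± 0.13 in MI against sham vehicle mice and passed (adjusted p = 0.0345, with 0.722% of genes called). Set against sham vehicle mice, NECA-treated MI mice then had -0.53 ± 0.11 (adjusted p = 0.00419), and Ndufa11, Ndufa5, Ndufb3, Ndufb4, Ndufb7 and Atp5d also passed, all lower. These 7 members were 8.54% of the 82, and 242 of 9560 genes passed in that fit (2.53%). Ndufa11, an accessory subunit of complex I, had 262, 260 and 172 CPM in sham vehicle mice and 175, 176, 169 and 209 CPM in NECA-treated MI mice, so its groups overlapped through sham vehicle mouse 3.

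Complex IV, cytochrome c oxidase, had a median log2 fold change of -0.03 in MI against sham vehicle mice and -0.10 in NECA-treated MI against MI mice, or 0.19 and -0.30 with the libraries summed. Cox4i1, its most counted gene, which encodes the common form of subunit 4, had 1280, 1290 and 974 CPM in sham vehicle mice, 1130, 1220 and 937 CPM in MI mice, and 1230, 1160, 1150 and 1250 CPM in NECA-treated MI mice, with all groups overlapping. Cox8b, the muscle form of subunit 8, had 271, 231 and 172 CPM in sham vehicle mice, 222, 312 and 290 CPM in MI mice, and 220, 190, 179 and 228 CPM in NECA-treated MI mice. Its log2 fold change was 0.29 ± 0.18 in MI against sham vehicle mice (edgeR adjusted p = 0.541) and -0.43 ± 0.17 in NECA-treated MI against MI mice (adjusted p = 0.793). In the latter comparison the groups overlapped through MI mouse 1. The 4 genes of complex IV with too few counts to test were Cox4i2, with 56 counts over the 10 mice, Cox6b2 with 13, Cox7b2 with 1 and Cox8c with 0. They encode forms known from lung (Cox4i2) or testis (Cox6b2, Cox7b2 and Cox8c). A count of 0 over these libraries allows up to 0.26 CPM, taken as 3 counts of the total and covering counting error only.

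Several subunits exist as a muscle form and a common form, and their shares are given here by group. Cox6a2, the muscle form of subunit 6a, made up 94.6% ± 1.74 of the counts of both forms in sham vehicle mice, 94.7% ± 1.72 in MI mice (SD, n = 3 each) and 95.5% ± 0.406 in NECA-treated MI mice (SD, n = 4). Cox7a1, the muscle form of subunit 7a, made up 62.2% ± 2.80, 61.5% ± 2.37 and 63.8% ± 1.42 in that order. Cox8b made up 66.7% ± 5.34, 73.4% ± 3.02 and 68.4% ± 3.14 of Cox8a and Cox8b. Cox4i2 made up 0.323%, 0.501% and 0.431% of subunit 4 counts, and Cox6b2 0.0607%, 0.197% and 0.447% of subunit 6b counts. Exact two-sided permutation tests over mice, adjusted over 27 tests of 9 shares, gave an adjusted p of at least 0.514. The smallest unadjusted p such a test can give is 0.1 for 3 against 3 mice and 0.0571 for 3 against 4. Each is above 0.05, so no share could pass the threshold, and the tests cannot decide whether shares differed. By these shares the muscle forms Cox6a2, Cox7a1 and Cox8b were in the majority in each of the 3 groups.

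The share of Ndufa4l2 in the counts of Ndufa4 and Ndufa4l2 was 1.22%, 1.51% and 0.767% in sham vehicle mice, 2.57%, 3.80% and 5.04% in MI mice, and 2.35%, 3.36%, 2.34% and 2.14% in NECA-treated MI mice. All infarcted mice lay above all sham vehicle mice. Against sham vehicle mice the exact permutation p was 0.1 for MI and 0.0571 for NECA-treated MI mice, the smallest each design can give (adjusted p = 0.514 for both). Between MI and NECA-treated MI mice it was 0.114. In the 1st library of MI mouse 2 the share was 2.04%, against 3.80% in the 2nd, and in MI mouse 3 it was 5.08% and 5.04%. From the deposited length-scaled values the mean shares were 0.65%, 2.3% and 2.5%, so there NECA-treated MI mice were not lower than MI mice.

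**Figure D4:**
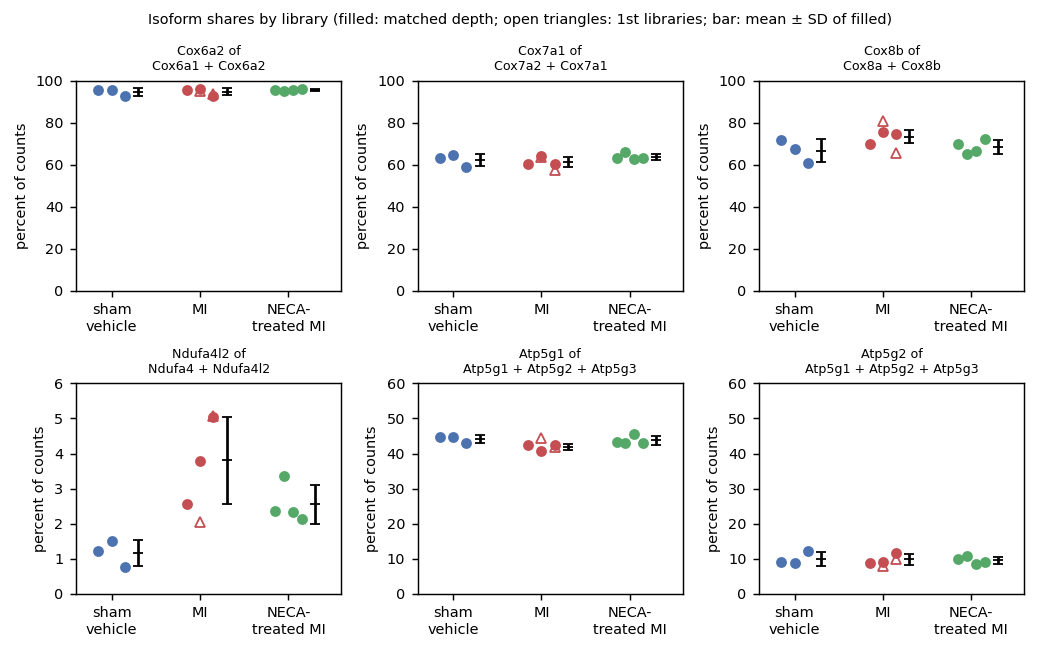
Share of 1 isoform in the counts of its isoform set (y axes in percent, from 0) by group (x axes). Filled points are matched libraries with their mean ± SD as bars, and open triangles are 1st libraries. The share of Ndufa4l2 lies between 0.767% and 1.51% in sham vehicle mice and between 2.14% and 5.04% in the matched libraries of infarcted mice, whereas the other panels overlap between groups or differ by a few percentage points.

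For complex V, the ATP synthase, 13 of 17 genes were negative in MI against sham vehicle mice (median log2 fold change -0.10) and 9 of 17 when NECA-treated MI mice were set against MI mice (median -0.00). With the libraries summed the medians were 0.12 and -0.21. Atp5b, the catalytic beta subunit, had the highest level of all members. It had 4270, 4200 and 3540 CPM in sham vehicle mice, 3860, 4250 and 3070 CPM in MI mice, and 3810, 3640, 4000 and 4240 CPM in NECA-treated MI mice, with overlapping groups. Atp5d, a subunit of the central stalk, had 686, 681 and 536 CPM in sham vehicle mice, 479, 547 and 434 CPM in MI mice, and 507, 529, 482 and 578 CPM in NECA-treated MI mice. Its log2 fold change in MI against sham vehicle mice was -0.38 ± 0.17 (edgeR adjusted p = 0.384), or -0.25 with the libraries summed. Atp5mpl, a small membrane subunit, had 148, 168 and 164 CPM in MI mice and 137, 96.4, 146 and 136 CPM in NECA-treated MI mice, a log2 fold change of -0.32 ± 0.17 (adjusted p = 0.830). The second identifier of Atp5o (ENSMUSG00000116933) had 0 counts, as deposited in whole numbers, in each of the 10 mice. Its deposited length-scaled value was above 0 in 1 MI mouse only, with a group mean of 0.307 TPM.

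The mature subunit c of the synthase is encoded by Atp5g1, Atp5g2 and Atp5g3, which give the same protein ring. Atp5g1 made up 44.2% ± 1.10 of their counts in sham vehicle mice, 41.9% ± 0.975 in MI mice and 43.8% ± 1.24 in NECA-treated MI mice. By mouse these were 44.8%, 44.8% and 42.9%, then 42.5%, 40.8% and 42.4%, then 43.2%, 43.1%, 45.7% and 43.1%. All MI mice lay below all other mice, by 0.4 percentage points or more at 1 decimal, and the exact permutation p was 0.1 and 0.0571, the smallest possible (adjusted p = 0.514 for both). In the 1st library of MI mouse 2 the share was 44.5%, within the range of the other groups. Atp5g3 made up 45.9%, 48.3% and 46.7%, and Atp5g2 made up 9.96%, 9.79% and 9.55%.

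The number of members whose groups did not overlap was read against the share among all genes, and no difference from that share was tested. In MI against sham vehicle mice 5 of 82 members did not overlap (6.1%, all genes 14.3%): Ndufa4l2 was higher and Ndufb10, Sdhc, Cox8a and Atp5g2 were lower in MI mice. Between NECA-treated MI and MI mice 5 did not overlap (6.1%, all genes 7.49%), with Sdhc higher and Ndufa5, Ndufb3, Ndufb4 and Atp5mpl lower. Between NECA-treated MI and sham vehicle mice there were 4 (4.88%, all genes 8.56%), with Ndufa4l2 higher and Ndufc2, Cox8a and Atp5g2 lower. Overlap was judged on TMM-scaled levels. Relative to library totals, Cox8a and Atp5g2 overlapped in both comparisons with sham vehicle mice. On that scale Ndufc2 overlapped between NECA-treated MI and sham vehicle mice, and Sdhc between NECA-treated MI and MI mice.

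Compared per transcript length, in TPM (transcripts per M, means over the 10 mice), the levels of members spanned a wide range within a complex. Atp5b had the highest level with 3020 TPM. Cox6a2 was highest in complex IV with 1960 TPM, Uqcr11 in complex III with 1190 TPM, Ndufa4 in complex I with 1170 TPM and Sdhb in complex II with 535 TPM. The lowest tested members were Atp5s with 13.9 TPM and Ndufa4l2 with 22.6 TPM. The median level was 367 TPM over the complex I genes, 314 over complex II, 766 over complex III, 952 over the tested genes of complex IV and 877 over those of complex V. Dividing reads from the 3′ end by length lowers long transcripts, so these levels favour short genes.

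The members also differed between libraries of the same mouse. In MI mouse 2 the median log2 ratio of CPM in the 1st to the 2nd library was 0.57 over the 82 members, with 77 above 0, and -0.05 over 7859 genes. In MI mouse 3 it was 0.03, with 45 above 0, and 0.05 over 8767 genes. The members took 5.02% of counts in the 1st library of MI mouse 2 and 3.70% in the 2nd, and 3.48% and 3.40% in MI mouse 3. In MI mouse 2 the median ratio was 0.58 for complex I, 0.27 for complex II, 0.53 for complex III, 0.53 for complex IV and 0.43 for complex V. The ratio of MI mouse 2 also differed with transcript length: over all genes it was 0.28 for transcripts under 600 bases and -0.24 for those of 2000 bases and over, and Spearman's rho with length was -0.43 over all genes and -0.29 over members. These correlations are across genes of 1 library pair, which are not independent. Among members with transcripts under 600 bases the median ratio was 0.62. Length was the median over annotated coding transcripts. The 4 members of 2000 bases and over had a median of 0.73, with 4 of 4 above 0. Of these, Ndufb2 (2413 bases, ratio 0.88) averaged 122 CPM and 367 TPM, and Ndufa3 (433 bases) 166 CPM and 526 TPM. Atp5g1 (2675.5 bases, ratio 0.75) averaged 759 CPM and 1570 TPM, and Cox7a2 (659 bases) 204 CPM and 419 TPM. The deposited TPM thus treat Ndufb2 and Atp5g1 as short, so these genes are not read as exceptions to the length trend. Of the others, Cycs (3123 bases, ratio 0.71) averaged 592 CPM and 254 TPM, and Atp5a1 (2572.5 bases, ratio 0.11) 3180 CPM and 1400 TPM. Both ratios lay above the -0.24 of all genes of that length. Ndufs1 (651 bases, ratio 0.07) averaged 472 CPM and 212 TPM, which treats it as long. The lengths used here can thus err in either direction. The largest shifts were in Atp5e, from 216 to 485 CPM, and Ndufc1, from 96.7 to 211 CPM between the 2nd and the 1st library. Sdha had 1060 and 1030 CPM and Atp5b 3930 and 4090 CPM.

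**Figure D5:**
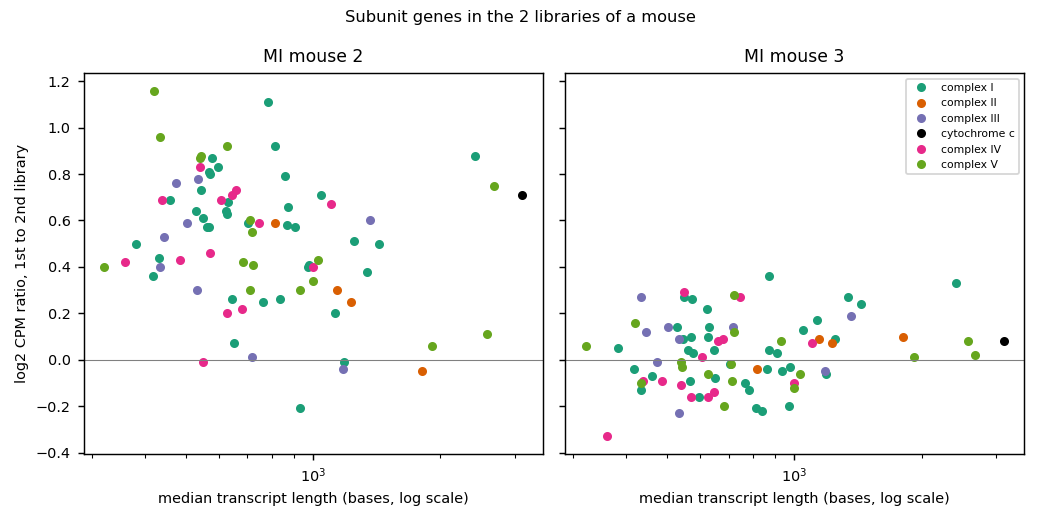
Log2 ratio of CPM in the 1st to the 2nd library of the same mouse (y axis) against median transcript length (x axis, log scale) for each tested subunit gene, coloured by complex, in MI mouse 2 (left) and MI mouse 3 (right). In MI mouse 2, 77 of 82 genes lie above 0 with a median of 0.57, and in MI mouse 3 the genes scatter around a median of 0.03.

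Other mitochondrial genes were described with 9 lists chosen for function, and 0 genes of these lists passed in any of the 3 comparisons. The 17 genes of the tricarboxylic acid cycle had negative fold changes for 16 genes in MI against sham vehicle mice (median -0.24) and positive for 17 when NECA-treated MI mice were set against MI mice (median 0.14). Without MI mouse 3 these medians were -0.05 and -0.05, with 13 and 12 of 17 negative. The 12 tested genes of coenzyme Q synthesis (highest Coq8a, 509 CPM) had -0.27 with 11 negative and 0.17 with 10 positive, and -0.06 and 0.04 without MI mouse 3. The 7 adenine nucleotide and phosphate carriers and channels (highest Slc25a4, the heart ADP/ATP carrier, 3730 CPM) had -0.29 with 7 negative and 0.11 with 6 positive, and -0.14 and -0.02 without it. The 14 tested regulators of mitochondrial biogenesis (highest Perm1, 308 CPM) had -0.20 with 9 negative and 0.33 with 12 positive, and 0.00 and 0.12 without it. With the 1st and 2nd libraries summed, the carriers had -0.07 with 6 negative and -0.10 with 1 positive, so their direction in the second comparison turned. The summed medians were -0.14 and 0.09 for the tricarboxylic acid cycle, -0.14 and 0.09 for coenzyme Q synthesis, and -0.36 and 0.41 for the regulators. Set against sham vehicle mice, NECA-treated MI mice had medians of -0.12 for the cycle (13 of 17 negative) and -0.10 for coenzyme Q synthesis (8 of 12). The carriers had -0.18 (7 of 7) and the regulators -0.03 (8 of 14).

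Assembly, import and translation genes were described in the same way. The 14 complex I assembly factors (highest Ecsit, 67.1 CPM) had negative fold changes for 11 genes between MI and sham vehicle mice (median -0.19), and their median between NECA-treated MI and MI mice was -0.01. The 21 tested assembly factors of complexes III and IV (highest Uqcc1, 122 CPM) had -0.34 with 18 negative, and 0.15 with 12 positive. With the 1st and 2nd libraries summed they had -0.29 with 11 negative, and -0.06 with 9 positive. The 20 import genes (highest Hspa9, the mitochondrial heat shock protein, 545 CPM) had -0.22 with 15 negative, and -0.03. The 49 genes of the large mitochondrial ribosomal subunit (highest Mrpl42, 174 CPM) had -0.21 with 38 negative, and -0.02. With the libraries summed the complex I assembly list had -0.14 and -0.15, the ribosomal list 0.02 and -0.27, and the import list 0.06 and -0.29. The 13 mitochondrially encoded subunits (highest mt-Co1, 92300 CPM) had -0.13 with 9 negative, and -0.02, the same direction as the nuclear-encoded members (-0.10 and -0.04). Without MI mouse 3 they had 0.06 and -0.15. With the libraries summed they had -0.27 and 0.20, the opposite direction from the nuclear-encoded members in both comparisons. This contrast differed between libraries of the same mouse. In MI mouse 2 the mitochondrially encoded subunits took 19.8% of counts in the 1st library and 24.2% in the 2nd, and the nuclear-encoded members 5.02% and 3.70%. Between NECA-treated MI and sham vehicle mice the complex I assembly list had -0.29 (13 of 14 negative) and that of complexes III and IV -0.17 (16 of 21). Import had -0.20 (19 of 20), the ribosomal list -0.25 (45 of 49) and the mitochondrially encoded subunits -0.10 (10 of 13).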

How the data were processed

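Myocardial RNA was sequenced from the 3′ end by a modified CEL-Seq2 protocol without pooling, per the labels' protocols. Per the submitters' processing notes, the reads were handled with FastQC 0.11.9, STAR and RSEM on GRCm39. Annotation release, strand setting and molecular identifiers: not given in the sources used here. From RSEM the authors deposited expected counts per gene, as whole numbers, and log2(TPM + 1), the latter used for levels per length and as an alternative. Of 57054 rows, 306 had values only in the 1st libraries and 101 lacked them only there, and 56647 were kept. Names came from GENCODE M21 by identifier (52029 rows). That annotation belongs to another build, so no gene coordinates were taken from it. Promoters came from RefSeq on GRCm38.p6 and are printed with that build alone. In all, 12 pseudogene or noncoding rows of matching symbol were left out, 0.0149% to 0.0277% of counts per library. RSEM divides reads among near-identical copies, so members with such copies are uncertain.

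The mouse was the replicate (3, 3 and 4). The labels do not say whether the mice were independent in other ways, and p-values measure the spread between these mice. The test was that of edgeR 4.0.16 run in R 4.3.3 (filterByExpr, TMM, robust quasi-likelihood, 1 fit over 10 mice, two-sided, Benjamini-Hochberg over 9505 genes, threshold 0.05). The 2nd libraries stood for MI mice 2 and 3. A sum of both would consist mostly of libraries of another depth, with another set of gene rows, that exist for MI only. CPM of members are TMM-scaled unless said to be relative to library totals, a prior of 2 was added for values per mouse on the log2 scale, and errors of fold changes are standard errors. On simulated counts over 9505 genes the test recovered 45% of 2-fold and 92% of 4-fold changes between NECA-treated MI and MI mice. Between NECA-treated MI and sham vehicle mice it recovered 58% and 92%. The changed genes were drawn from all tested genes above a minimum level and not from the members.

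The members and lists were chosen with earlier results of these data known. Named genes were those past the threshold, the most counted and smallest-p member of each complex, the isoform sets, the untested members, complex II, Cyc1 and Cycs, with the highest-TPM member and those with an unadjusted p under 0.05 or groups apart added after their values were seen. Of the genes this rule names, some are not reported here. Alternatives were RLE or no scaling, no count filter, DESeq2 1.42.0, limma 3.58.1 on log2(TPM + 1), a fit of the compared groups alone, a block, other libraries and leaving out mice. Mice of the same number in different groups correlated at -0.246 to 0.203 in their deviations (9 pairs), so the numbers were not taken to pair mice.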

Additional observations from a re-analysis of the deposited data

Results flagged for a closer look

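Of 44 results examined in the 4 NECA-treated MI mice, 2 had a mouse far from the other three by Dixon's test at the 95% level. Chance flags about 1 in 20 groups. Sdhd, a membrane anchor of complex II, stood at 350 CPM in NECA-treated MI mouse 4 and at 307, 309 and 309 CPM in the other three, all within the 301 to 400 CPM of sham vehicle mice. The share of Atp5g1 among the subunit c genes stood at 45.7% in NECA-treated MI mouse 3 and at 43.2%, 43.1% and 43.1% in the others.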

How the results depend on the processing

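Of 1797 comparisons of 102 results with 23 alternatives, 1669 kept direction and side of the threshold, 58 moved, 62 uncalled values turned sign and 8 single-gene values newly passed; causes were not tested. The genes called in MI against sham vehicle mice numbered 15 with the 1st and 2nd libraries summed, 12 with the 1st alone, 191 without a count filter, 17 by DESeq2, 0 by limma, 0 in a fit of the 2 groups and 69 without both sham vehicle mouse 3 and MI mouse 3, and 0 to 50 without single mice. Members called were 1 without the filter, 1 without both mice and 0 to 1 without single mice. In NECA-treated MI against MI mice, genes called were 1 (summed), 1 (1st alone), 8 (no filter) and 0 to 2 (single mice). In NECA-treated MI against sham vehicle mice they were 0 (summed), 0 (1st alone), 4 (no scaling), 43 (no filter), 6 (DESeq2), 0 (limma), 7 (2 groups), 242 without both mice, with 7 members, and 0 to 7 (single mice). The replicate block gave 8, 0 and 4 genes and 0 members, and turned Sdha in the last comparison to -0.02. Mice of different numbers correlated at -0.299 to 0.309 (24 pairs), a range that held the same-number values. Medians in MI against sham vehicle mice were 0.14 summed and 0.15 with the 1st alone for all members, 0.17 and 0.18 for complex I, 0.04 and 0.05 for III, 0.19 and 0.19 for IV, and 0.12 and 0.13 for V. In NECA-treated MI against MI mice they were -0.27 and -0.28, -0.36 and -0.37, -0.19 and -0.20, -0.30 and -0.31, and -0.21 and -0.22. Log2 fold changes that turned sign, summed and with the 1st alone, were Ndufa11 (0.03, 0.04) in MI against sham vehicle mice and, in NECA-treated MI against MI mice, Uqcr10 (-0.19, -0.20), Cycs (-0.18, -0.19), Atp5d (-0.03, -0.03), Sdhb (-0.15, -0.15), Sdhd (-0.09, -0.09) and Ndufb10 (-0.17, -0.18). By limma, Cyc1 had 0.05 and -0.07 in these comparisons and Sdhc 0.14 in NECA-treated MI against sham vehicle mice, where it had 0.02 without scaling. Without both mice, Ndufb4 had -0.08, Uqcrb -0.12, Atp5mpl -0.02 and Ndufb3 -0.04 in MI against sham vehicle mice, Cycs -0.01, Sdhb -0.17 and Sdhd -0.13 in NECA-treated MI against MI mice, and Sdha -0.08 in NECA-treated MI against sham vehicle mice. Without single mice the ranges across 0 were, in the first comparison, Ndufb4 -0.10 to 0.13, Uqcrb -0.14 to 0.13 and Ndufb3 -0.09 to 0.29; in the second, Cycs -0.01 to 0.22, Sdhb -0.16 to 0.19, Sdhd -0.13 to 0.22 and Uqcr10 -0.01 to 0.07; in the last, Sdhc -0.11 to 0.04, Cox8b -0.30 to 0.02, Atp5mpl -0.31 to 0.02 and Sdha -0.07 to 0.06. Differences in isoform share, in percentage points, turned likewise: in MI against sham vehicle mice Cox7a1 -2.32 to 0.401, Cox6a2 -0.872 to 1.12 and Atp5g2 -1.07 to 0.934; in NECA-treated MI against MI mice Cox6a2 -0.219 to 1.34, Atp5g2 -0.716 to 0.663 (0.726 summed, 0.754 with the 1st alone) and Cox4i2 -0.249 to 0.0505; in NECA-treated MI against sham vehicle mice Cox6a2 -0.10 to 1.48, Cox8b -1.18 to 4.10, Atp5g2 -1.01 to 0.694 and Cox4i2 -0.0714 to 0.228. The difference in Ndufa4l2 share between NECA-treated MI and MI mice was 0.191 percentage points on deposited TPM and -1.25 on counts. Ndufa4l2 rests on 5 to 31 counts per mouse, which limits its precision.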

Other observations

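Among rows of matching symbol left out as pseudogenes or noncoding copies, by symbol or by annotated gene type, 2 carried counts in every library. Ndufb1-ps had 141, 192 and 115 counts in sham vehicle mice, 118, 128 and 129 in MI mice, and 170, 121, 108 and 137 in NECA-treated MI mice. Ndufb4c had 115, 115 and 90 counts, then 71, 82 and 67, then 75, 82, 66 and 84. Ndufab1, the acyl carrier subunit of complex I that the symbol rule left out, had 344, 318 and 297 CPM relative to library totals in sham vehicle mice, 307, 297 and 271 CPM in MI mice, and 301, 267, 287 and 315 CPM in NECA-treated MI mice.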
